A study of Mus musculus with 18 samples.

Results

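A set of 9 complement genes was examined in RNA-seq of bone marrow-derived macrophages (BMDMs): the C1q chains C1qa, C1qb and C1qc, the central component C3, factor B (Cfb) and properdin (Cfp), the anaphylatoxin receptors C3ar1 and C5ar1, and the C1 inhibitor Serping1. They were chosen by symbol as the 9 of 50600 genes in the count table that carry these names, and all 9 were found. The BMDMs were grown from mouse bone marrow with GM-CSF for 8 days and came from wild-type (WT) mice or mice lacking IRF5 (IRF5 KO), a transcription factor activated downstream of Toll-like receptors. In each genotype 3 libraries were unstimulated, 3 received DMSO for 1 h and then LPS (100 ng/ml) for 2 h, and 3 received 3.5 μM defactinib for 1 h before the same LPS, which makes 6 groups of 3. Defactinib is an inhibitor of the kinases FAK and PYK2. For the unstimulated libraries the sample labels give DMSO whereas the column names mark them as untreated, so that the presence of vehicle is not settled. The labels do not say whether libraries of a group came from separate mice, and p-values then measure only the spread between these libraries, which may be technical. GM-CSF cultures of bone marrow can hold several kinds of myeloid cell.

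Complement is a cascade of plasma proteins that tags microbes and dying cells. C1q binds antibody or altered surfaces and starts the classical pathway, whereas C3, once cleaved, is joined by factor B to form the convertase of the alternative pathway, which properdin holds together. Cleavage of C3 and C5 releases small peptides, the anaphylatoxins, which are sensed by the receptors encoded by C3ar1 and C5ar1. The inhibitor encoded by Serping1 inactivates the C1 proteases. Much of plasma complement is made in the liver, but macrophages are a known source of C1q, C3, factor B and properdin in tissues.

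The libraries held from 39282181 to 61949143 pairs assigned to genes, and 15663 genes passed the filter on low counts. All 9 members passed it, Serping1 only through the WT LPS DMSO libraries. Irf5 itself ranged from 587 to 650 CPM (read counts scaled to library size, TMM-normalised) in WT unstimulated and from 335 to 397 CPM in IRF5 KO unstimulated libraries, a log2 difference of 0.75 (edgeR adjusted p = 0.00492). After LPS the genotypes overlapped, with 434-475 CPM in WT and 345-435 CPM in IRF5 KO libraries (log2 0.16, edgeR adjusted p = 0.428), and with defactinib WT stood at 213-379 CPM and IRF5 KO at 353-392 CPM (log2 -0.42, edgeR adjusted p = 0.0545). Irf5 counts therefore separated the genotypes only without LPS. Counts summed over the whole gene do not show which exons are missing, and the genotypes are named as the labels give them. The IRF5 KO LPS DMSO libraries did not form a single group: replicate 3 differed from replicates 1 and 2 by a chi-square per gene of 441 and 425, against 2.33 between replicates 1 and 2. Over all tested genes, log2 CPM of replicate 3 had a Pearson r of 0.981 with the mean of IRF5 KO unstimulated, 0.945 with IRF5 KO LPS defactinib, 0.959 with WT LPS DMSO and 0.920 with WT LPS defactinib. For replicates 1 and 2 the values were 0.927 each, 0.989 each, 0.901 each, and 0.963 and 0.962 in the same order. Replicates 1 and 2 thus lay nearest to the defactinib-treated libraries, and replicate 3 nearest to the unstimulated IRF5 KO libraries. The LPS receptor gene Cd14 nevertheless stood at 329 CPM in replicate 3, above the 90.1-116 CPM of IRF5 KO unstimulated and the 191 and 192 CPM of replicates 1 and 2. Which of these libraries fit their label was not tested, and this bears on every value that uses IRF5 KO LPS DMSO. For the members, values that changed most are therefore given both without replicate 3 and with replicate 3 as the only library of its group. The lone library was taken to vary like the other groups. WT LPS defactinib replicate 3 also differed from its group, with a chi-square per gene of 140 and 183, where its other 2 libraries differed by 84.1, and so did WT unstimulated replicate 3, with 55.2 and 52.4 against 3.82. Macrophage markers were counted in every group (8 of 8 above 1 CPM, among them Lyz2 and Csf1r), and markers of T, B and NK cells summed to at most 2.02 CPM in any library.

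Per length of transcript, properdin was the highest of the members and the C1 inhibitor the lowest. In RPKM, which is CPM divided by exonic length, mean levels over the 18 libraries were 396 RPKM for Cfp, 180 RPKM for C3, 165 RPKM for C1qb, 57.5 RPKM for C1qa, 31.8 RPKM for C1qc, 14.05 RPKM for C5ar1, 6.18 RPKM for C3ar1 and 0.107 RPKM for Serping1. The level of Cfb, at 14.04 RPKM, cannot be set against the others, because 79.5% of its exonic bases are shared with the overlapping gene model Gm20547 on the same strand and pairs that fit both were not counted. Together the members took between 0.159% and 0.241% of counted pairs in a library.

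**Figure D1:**
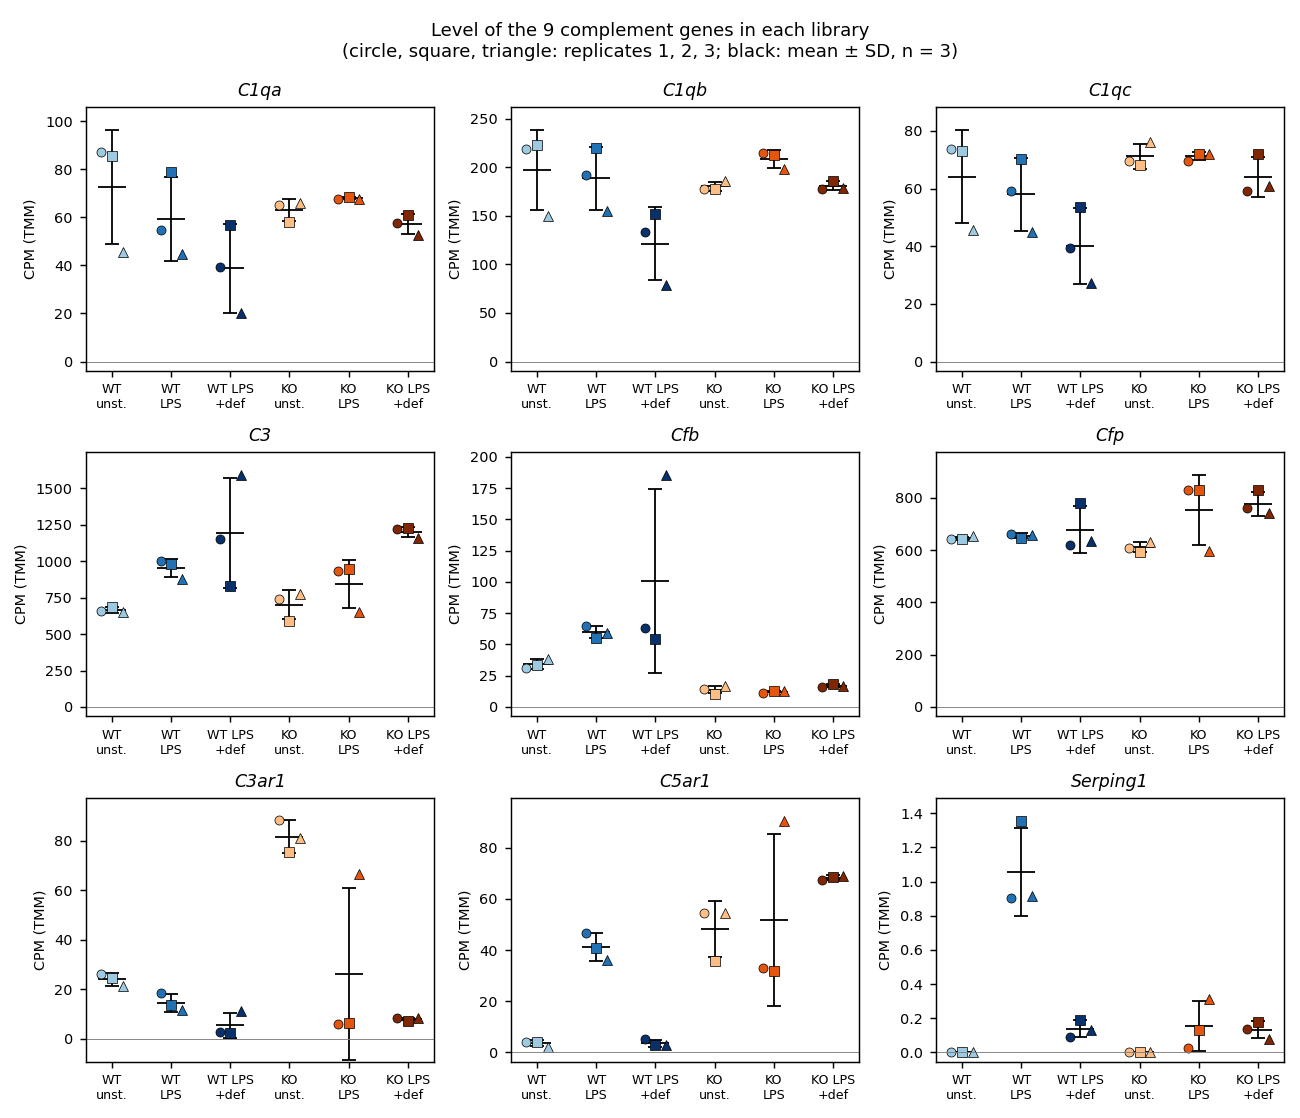
Level of each of the 9 genes in each library, in TMM-normalised CPM, by group (unst., unstimulated; LPS, LPS with DMSO; +def, LPS with defactinib; KO, IRF5 KO). Points are libraries, black bars are mean ± SD (n = 3), and each panel has its own axis from 0; C5ar1 is low in the WT unstimulated and WT LPS defactinib groups, and in C3ar1 the third IRF5 KO LPS DMSO library stands at 66.4 CPM against 5.96 and 6.39 CPM.

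A gene was called changed at an adjusted p below 0.05 by edgeR's quasi-likelihood F test (Benjamini-Hochberg over all 15663 genes) together with a log2 fold change beyond 1. With LPS in WT, 2 of 9 members were called, both higher (C5ar1 and Serping1), where 21.3% of all tested genes were called and 11.6% were called higher. LPS in IRF5 KO gave 1 member, Serping1, higher, against 13.3% of all genes. Defactinib in LPS-stimulated WT cells gave 2 members, C5ar1 and Serping1, both lower, against 29.1% of all genes called and 18.6% called lower. Defactinib in LPS-stimulated IRF5 KO cells gave 0 of 9, against 0.919% of all genes. In that comparison 2 members had an unadjusted p below 0.05, and DESeq2 and limma-voom also called 0. Without IRF5 KO LPS DMSO replicate 3, LPS in IRF5 KO gave 2 members (26.3% of all genes in that fit) and defactinib in IRF5 KO gave 1 (1.48%). With replicate 3 as the only library of that group each comparison gave 1 member, against 2.90% and 20.3% of all genes. Since Serping1 passed the filter only through the group in which it was high, its place in these counts is a description. With the threshold on p alone, 4 members passed with defactinib in WT (57.0% of all genes), 7 and 4 with LPS plus defactinib in WT and IRF5 KO (53.2% and 53.4%), and 4 between WT and IRF5 KO after LPS with defactinib (36.3%). Comparisons that use the same group share its 3 libraries.

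Positions are given in mm10. The receptor for C5a is encoded by C5ar1 (ENSMUSG00000049130, chr7:16246743-16259540, minus strand), which was high after LPS in WT and low when defactinib came before it. In WT BMDMs it stood at 4.25, 4.18 and 2.25 CPM in the unstimulated libraries and at 46.8, 40.8 and 36.2 CPM after LPS. With defactinib before LPS it stood at 5.09, 2.74 and 2.75 CPM. All 3 LPS DMSO libraries lay above all other WT libraries, and the unstimulated and defactinib libraries overlapped. C5ar1 rose 11.6-fold with LPS in WT (log2 fold change 3.53, SE 0.40, edgeR adjusted p = 5.47e-06) and fell 11.7-fold with defactinib (-3.54, SE 0.40, edgeR adjusted p = 5.00e-06). WT LPS defactinib differed from WT unstimulated by a log2 fold change of -0.013 (SE 0.39, edgeR adjusted p = 0.980).

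In IRF5 KO BMDMs, C5ar1 was already high without LPS. The unstimulated IRF5 KO libraries stood at 54.6, 35.6 and 54.4 CPM, all above the WT unstimulated libraries, a 13.5-fold difference (log2 -3.76 for WT against IRF5 KO, SE 0.41, edgeR adjusted p = 1.36e-05). After LPS with DMSO they stood at 33.0, 31.7 and 90.6 CPM, the last library being replicate 3. After LPS with defactinib they stood at 67.3, 68.6 and 69.0 CPM, all above the WT libraries of that treatment by 19.3-fold (log2 -4.27, SE 0.42, edgeR adjusted p = 1.51e-06). Ordered by mean, the groups ran from IRF5 KO LPS defactinib (68.3 CPM) over IRF5 KO LPS DMSO, IRF5 KO unstimulated and WT LPS DMSO (41.2 CPM) to WT unstimulated (3.56 CPM) and WT LPS defactinib (3.53 CPM). The libraries of each neighbouring pair in this order overlapped, except WT LPS DMSO and WT unstimulated.

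The LPS effect on C5ar1 in IRF5 KO was a log2 fold change of 0.10 (SE 0.36, edgeR adjusted p = 0.840), and that of defactinib was 0.40 (SE 0.36, edgeR adjusted p = 0.531). Without IRF5 KO LPS DMSO replicate 3 these became -0.58 (edgeR adjusted p = 0.0643) and 1.08 (edgeR adjusted p = 0.0207), so that defactinib in IRF5 KO was then called in the opposite direction to WT. The differences between genotypes were themselves tested. The LPS effect was higher in WT than in IRF5 KO by 3.43 (log2, SE 0.53, edgeR adjusted p = 0.000851), and C5ar1 was the 1 member of 9 called for this interaction, against 9.83% of all genes. The defactinib effect was lower in WT (log2 -3.94, SE 0.53, edgeR adjusted p = 4.85e-05), and 2 of 9 members were called for this interaction, against 22.8% of all genes. Both C5ar1 interactions were called in all 20 alternative fits, including those that left out each library in turn, and without IRF5 KO LPS DMSO replicate 3 they were 4.10 and -4.62 (edgeR adjusted p = 4.07e-07 and 7.37e-08). With replicate 3 as the only library of its group they were 2.60 and -3.10 (edgeR adjusted p = 0.00136 and 8.93e-05), while the LPS and defactinib effects in IRF5 KO were 0.93 and -0.42 (edgeR adjusted p = 0.109 and 0.290). C5ar1 after LPS was then lower in WT than in IRF5 KO (log2 -1.15), against -0.33 (edgeR adjusted p = 0.459) with all libraries. Without replicate 3 this difference was 0.35 (edgeR adjusted p = 0.235), so that its direction depended on the libraries used.

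C5a and C3a receptors are also found on other myeloid cells, and marker sums for these moved with the groups. The neutrophil list (8 genes) summed to 58.0-80.0 CPM in WT unstimulated, 121-237 CPM in WT LPS DMSO and 117-167 CPM in WT LPS defactinib libraries. C5ar1 was low in the first and the last of these groups. Of its genes 6 of 8 were higher in all WT LPS DMSO than in all WT unstimulated libraries, and all 8 overlapped between WT LPS DMSO and WT LPS defactinib. S100a8, Ngp, Ltf and Camp reached 88.2, 40.7, 22.1 and 4.11 CPM, whereas Ly6g and Elane did not exceed 1.09 and 0.437 CPM in any library. The mast cell and basophil list (7 genes) summed to 8.06-15.7 CPM in WT and 43.2-73.2 CPM in IRF5 KO libraries. Nearly all of this came from Gata2 and Kit, and Cpa3, Mcpt8 and Ms4a2 did not exceed 1.07, 0.477 and 0.137 CPM. The dendritic cell list (7 genes) summed to 1930-2936 CPM. From WT unstimulated to WT LPS DMSO, 4 of its 7 genes were higher in all libraries (Ccr7, Flt3, Xcr1 and Zbtb46) and 3 overlapped. Of these, Xcr1 and Flt3 were low and did not exceed 0.371 and 2.72 CPM in any library. With defactinib in WT, Ccr7, Xcr1 and Zbtb46 were lower in all libraries and the other 4 overlapped, among them Itgax, which made up most of the sum. Ccr7 stood at 32.9-41.9, 266-368 and 8.78-47.6 CPM in WT unstimulated, WT LPS DMSO and WT LPS defactinib libraries, and Itgax at 2264-2427, 2373-2571 and 2269-2875 CPM. Of the 8 macrophage markers, 5 were lower in all WT unstimulated than in all IRF5 KO unstimulated libraries (Adgre1, Cd14, Csf1r, Fcgr1 and Itgam), Mertk was higher, and Cd68 and Lyz2 overlapped. Between WT LPS DMSO and WT unstimulated, 5 of the 9 members and 8 of 23 other complement genes also had libraries without overlap. Between WT and IRF5 KO unstimulated these were 4 of 9 and 13 of 23. The share over all genes was not set beside the marker counts, so they do not by themselves show a shift in cell types. The part of these markers in the receptor differences was not tested. In bulk RNA, fewer cells of a type and less RNA per cell cannot be told apart.

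**Figure D2:**
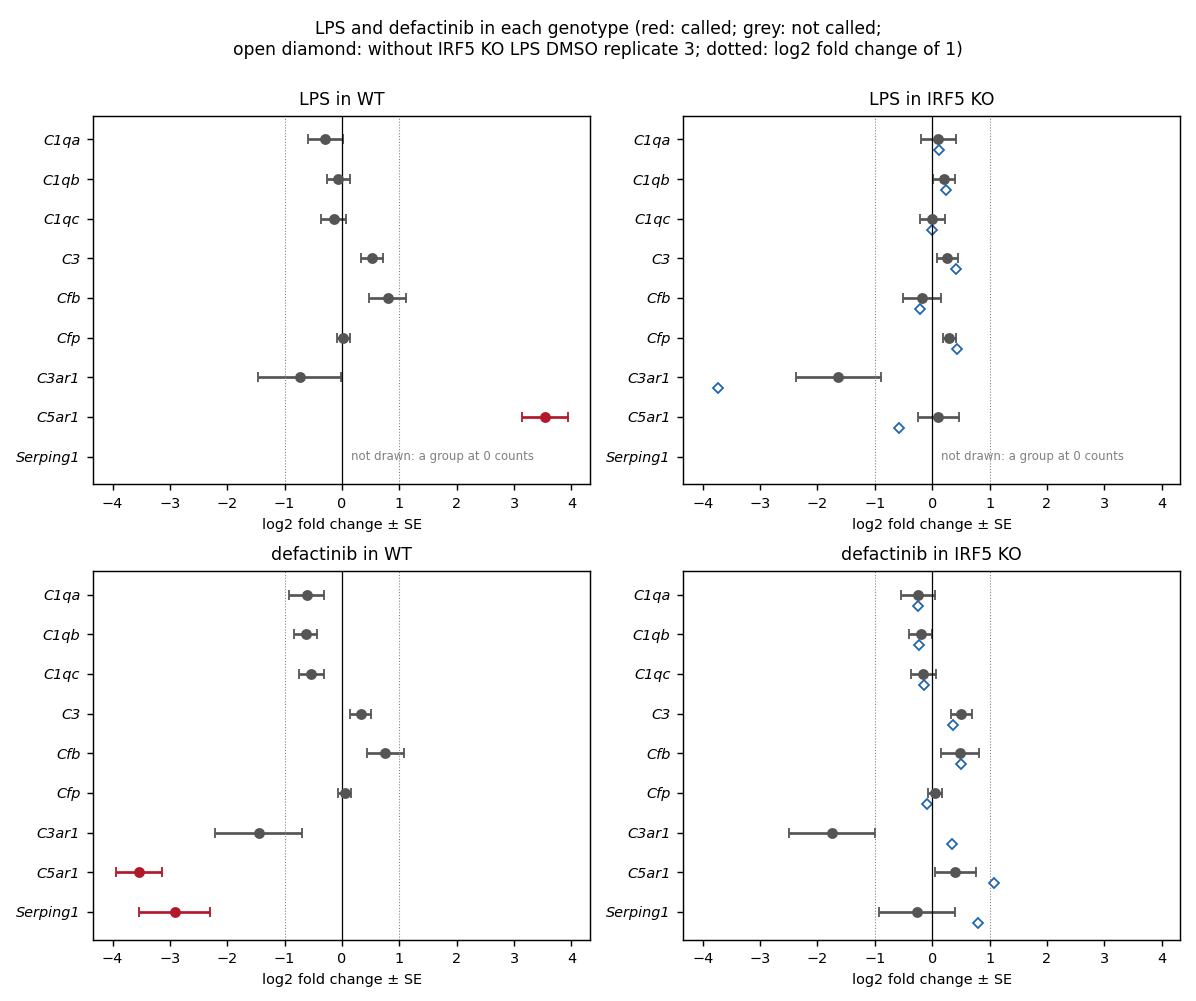
Log2 fold change ± SE of each gene with LPS (top) and with defactinib before LPS (bottom) in WT (left) and IRF5 KO (right) BMDMs. Red points were called, and open diamonds leave out IRF5 KO LPS DMSO replicate 3; Serping1 is not drawn for LPS because its unstimulated groups have 0 counts. C5ar1 lies at 3.53 and -3.54 in WT, and C3ar1 is the gene whose IRF5 KO values move most without that library.

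The C3a receptor gene C3ar1 (ENSMUSG00000040552, chr6:122847138-122856161, minus strand) was lower after LPS with defactinib than in unstimulated cells of both genotypes. In WT it stood at 26.2, 24.6 and 21.2 CPM unstimulated, 18.2, 13.5 and 11.4 CPM after LPS and 2.72, 2.12 and 10.996 CPM after LPS with defactinib. In IRF5 KO it stood at 88.6, 75.7 and 81.0 CPM unstimulated, 5.96, 6.39 and 66.4 CPM after LPS and 8.17, 7.28 and 8.18 CPM after LPS with defactinib. The libraries did not overlap between unstimulated and LPS-treated cells in either genotype.

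Against unstimulated cells, C3ar1 fell 10.4-fold with LPS plus defactinib in IRF5 KO (log2 -3.38, SE 0.79, edgeR adjusted p = 0.00259), a call that all 14 alternative fits shared. It fell 4.56-fold in WT (log2 -2.19, SE 0.77, edgeR adjusted p = 0.0260), a call kept in 9 of 14. It was lost without a filter on low counts (edgeR adjusted p = 0.0735) and without WT unstimulated replicate 1 or 2 or WT LPS defactinib replicate 1 or 2 (edgeR adjusted p between 0.0511 and 0.0944), and also when the fold change was tested in the model (edgeR's glmTreat, adjusted p = 0.176). In IRF5 KO 1 member was called higher and 1 lower in this comparison, against 7.85% and 16.2% of all genes, and in WT 3 members were called, against 24.9%. LPS alone gave -0.74 in WT (SE 0.73, edgeR adjusted p = 0.454) and -1.63 in IRF5 KO (SE 0.74, edgeR adjusted p = 0.0902). Without IRF5 KO LPS DMSO replicate 3 the value in IRF5 KO was -3.73 and was called (edgeR adjusted p = 7.04e-05), and the LPS effect then differed between genotypes by 2.99 (edgeR adjusted p = 0.00241, against 0.561 with it). Defactinib in WT gave -1.45 (SE 0.76, edgeR adjusted p = 0.113), and without WT LPS defactinib replicate 3 it gave -2.55 and was called (edgeR adjusted p = 0.0175). Defactinib in IRF5 KO gave -1.74 (SE 0.75, edgeR adjusted p = 0.178) with all libraries and 0.35 (edgeR adjusted p = 0.719) without IRF5 KO LPS DMSO replicate 3. With replicate 3 as the only library of its group, LPS gave -0.28 and defactinib -3.09 in IRF5 KO. The LPS and defactinib effects then differed between genotypes by -0.46 and 1.65, against 2.99 and -1.81 without that replicate. WT against IRF5 KO after LPS was -2.22 with replicate 3 as the only library, 1.22 without it and -0.87 with all libraries. The direction of these differences thus depended on which libraries were used.

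Unstimulated IRF5 KO cells held more C3ar1 in every library than unstimulated WT cells, 81.8 ± 6.51 against 24.01 ± 2.56 CPM (mean ± SD, n = 3). With the spread shared over all groups this difference was not called (log2 -1.77, SE 0.74, edgeR adjusted p = 0.134), whereas a fit of only these groups called it (edgeR adjusted p = 4.27e-08), as did limma-voom (adjusted p = 0.0278).

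Promoter sequence from RefSeq (GRCm38.p6) was at hand for 6 of the 9 members: C1qb, C1qc, C3, C3ar1, C5ar1 and Cfp. The receptors are shown because their levels separated the groups. Each sequence is printed 5′ to 3′ on the gene's strand, and holds the part of the 250 bases before the RefSeq start that also lies before the gene model used for counting. For C3ar1 this is chr6:122856162-122856407 and for C5ar1 chr7:16259541-16259588, both on the minus strand. Capitals mark a match to the AP-1 motif.
C3ar1: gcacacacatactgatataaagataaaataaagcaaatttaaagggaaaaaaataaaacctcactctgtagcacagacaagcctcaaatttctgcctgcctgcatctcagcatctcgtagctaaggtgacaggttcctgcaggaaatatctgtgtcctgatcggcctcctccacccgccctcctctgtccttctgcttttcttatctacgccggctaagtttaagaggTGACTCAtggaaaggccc
C5ar1: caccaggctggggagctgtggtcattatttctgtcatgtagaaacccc

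A set of 6 motifs was searched on both strands in the 250 bases: ISRE (GAAA, any 2 bases, GAAA), GAS (TTCNNNGAA), NF-kB by its consensus, AP-1 (TGANTCA), C/EBP (TTGCNNAA) and PU.1 (GAGGAAGT). The promoter of C3ar1 held the AP-1 letters 22 to 16 bases before the start, and 6.75% of 32851 promoters of this length held them. C3 held a C/EBP match (9.56% of promoters) 45 to 38 bases before the start. C1qc held an NF-kB match (7.25%) and a PU.1 match (2.44%). C1qb, C5ar1 and Cfp held none of the 6, and no member held the ISRE (2.98%) or GAS (7.02%) letters. No 2 of these matches overlapped. A match or its absence describes these letters in this window only.

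The C1 inhibitor Serping1 (ENSMUSG00000023224, chr2:84765387-84775444, minus strand) was near the detection limit and was counted only after LPS. All 6 unstimulated libraries had 0 counts. The WT LPS DMSO libraries had 39, 53 and 36 counts and the WT LPS defactinib libraries 4, 8 and 5. In IRF5 KO the counts were 1, 5 and 16 after LPS and 8, 8 and 3 after LPS with defactinib. WT LPS DMSO lay above all other groups with no overlap.

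Against a floor of 3 counts over the unstimulated group, Serping1 was at least 56.5-fold higher in WT LPS DMSO and at least 7.39-fold higher in WT LPS defactinib (edgeR adjusted p = 4.11e-05 and 0.00331). In IRF5 KO it was at least 9.41-fold higher after LPS and at least 7.57-fold higher after LPS with defactinib (edgeR adjusted p = 0.00528 and 0.00293), and the first of these calls was lost in a fit of only the groups compared (edgeR adjusted p = 0.119). With no filter on low counts, edgeR adjusted p was 1.08e-05 and 0.00300 in WT, and 0.00476 and 0.00262 in IRF5 KO. Replicate 3 held 16 of the 22 counts of IRF5 KO LPS DMSO, and without it the bound was 4.23-fold. With defactinib it was 7.55-fold lower in WT (log2 -2.92, SE 0.62, edgeR adjusted p = 0.00178), and it was 6.43-fold higher in WT than in IRF5 KO after LPS (log2 2.69, SE 0.60, edgeR adjusted p = 0.00304). Without IRF5 KO LPS DMSO replicate 3 the latter was 3.74 on the log2 scale (edgeR adjusted p = 0.000159). WT LPS DMSO was the high group in both and the group through which Serping1 passed the filter, so the same tests were read with no filter on low counts, where they gave -2.94 and 2.66 (edgeR adjusted p = 0.00169 and 0.00357). The defactinib effect was lower in WT than in IRF5 KO (log2 -2.65, SE 0.92, edgeR adjusted p = 0.0405), a call kept in only 7 of 19 alternative fits, with adjusted p between 0.00286 and 0.104; it was lost with no filter (edgeR adjusted p = 0.0594) and with the fold change tested in the model (edgeR's glmTreat, adjusted p = 0.188). The value was -3.71 when IRF5 KO LPS DMSO replicate 3 was left out. With that replicate as the only library of its group it was -1.68 and was lost (edgeR adjusted p = 0.129), and WT against IRF5 KO after LPS was 1.74 (edgeR adjusted p = 0.0410). Of the 12 fits that left out 1 library, it was kept in those without WT LPS defactinib replicate 2, IRF5 KO LPS DMSO replicate 3 or IRF5 KO LPS defactinib replicate 3.

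Factor B was higher in WT than in IRF5 KO in every condition. Cfb (ENSMUSG00000090231, chr17:34856374-34862518, minus strand) stood at 31.2, 33.5 and 38.5 CPM in WT unstimulated and at 14.1, 10.7 and 16.6 CPM in IRF5 KO unstimulated libraries. After LPS the WT libraries stood at 64.5, 55.1 and 59.4 CPM and the IRF5 KO libraries at 11.5, 12.5 and 12.6 CPM. After LPS with defactinib they stood at 62.9, 54.2 and 185 CPM in WT and at 15.9, 18.4 and 16.8 CPM in IRF5 KO. No WT library overlapped an IRF5 KO library of any condition.

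Cfb was higher in WT by 2.49-fold unstimulated (log2 1.32, SE 0.33, edgeR adjusted p = 0.0133), 4.89-fold after LPS (log2 2.29, SE 0.34, edgeR adjusted p = 7.88e-05) and 5.91-fold after LPS with defactinib (log2 2.56, SE 0.35, edgeR adjusted p = 3.69e-05). Without WT LPS defactinib replicate 3 the last was 1.80 on the log2 scale (edgeR adjusted p = 4.15e-07). In these 3 comparisons 2 members each were called, against 7.31%, 25.8% and 17.3% of all genes. The unstimulated call was lost without IRF5 KO unstimulated replicate 2 (log2 1.16, edgeR adjusted p = 0.0702) and when the fold change was tested in the model (edgeR's glmTreat, adjusted p = 0.952). The LPS effect on Cfb was 0.79 in WT (SE 0.33, edgeR adjusted p = 0.0648) and -0.18 in IRF5 KO (SE 0.33, edgeR adjusted p = 0.695), and their difference was 0.97 (SE 0.47, edgeR adjusted p = 0.160).

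LPS plus defactinib against unstimulated WT raised Cfb 2.93-fold (log2 1.55, SE 0.33, edgeR adjusted p = 0.00150). This call rested on WT LPS defactinib replicate 3, at 185 CPM, and without it the value was 0.78 (edgeR adjusted p = 0.000809), below the fold threshold. It was also lost when the fold change was tested in the model (edgeR's glmTreat, adjusted p = 0.112). Defactinib against DMSO after LPS gave 0.76 in WT (SE 0.33, edgeR adjusted p = 0.0602) and -0.010 without that library, and the call was made when replicate 1 or replicate 2 was left out in its place (1.04 and 1.07). In the same library the stromal markers Dcn and Lum stood at 5.22 and 1.36 CPM, where the other WT LPS defactinib libraries had at most 0.0241 and 0.0233 CPM and IRF5 KO libraries were at 0. The whole list of 6 stromal markers summed to 7.55 CPM there and to at most 2.09 CPM in any other library. Other markers differed there too. Adgre1 stood at 343 CPM against 132 and 150 CPM in replicates 1 and 2, and Ccr7 at 47.6 CPM against 13.3 and 8.78 CPM. Lyz2 was lower, at 8695 CPM against 11150 and 13440 CPM, and Cd68 and Itgam lay between those replicates. The part of all these markers in the levels of Cfb and of C3, highest in the same library, was not tested. All levels of Cfb are of read pairs that fit no overlapping gene.

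**Figure D3:**
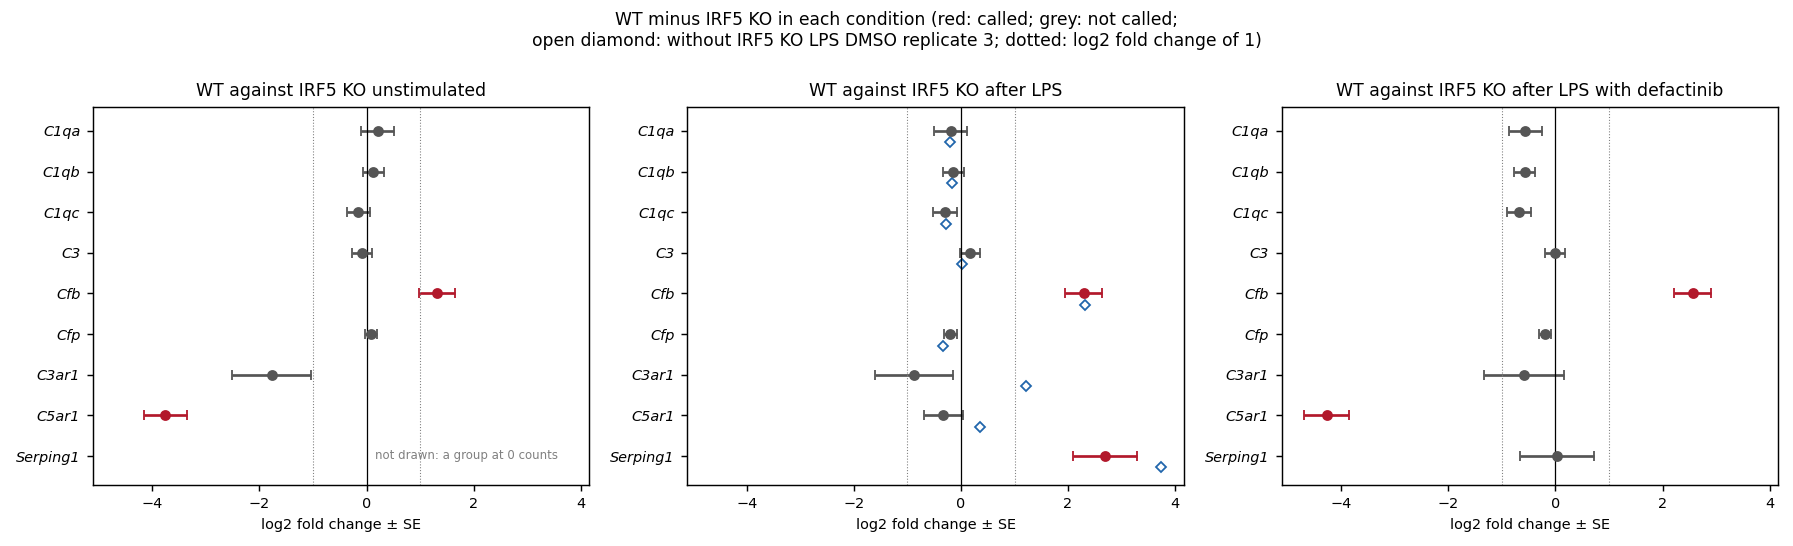
Log2 fold change ± SE of WT against IRF5 KO for each gene, unstimulated, after LPS and after LPS with defactinib; positive values are higher in WT. Red points were called, and open diamonds leave out IRF5 KO LPS DMSO replicate 3. Cfb is higher in WT in all 3 panels (1.32, 2.29 and 2.56), and C5ar1 is lower in WT without LPS (-3.76) and with defactinib (-4.27).

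C3 (ENSMUSG00000024164, chr17:57203970-57228136, minus strand) was high throughout and differed between conditions by less than the fold threshold with all libraries. It stood at 657, 685 and 648 CPM in WT unstimulated, 999.6, 978 and 880 CPM in WT LPS DMSO and 1155, 833 and 1588 CPM in WT LPS defactinib libraries. In IRF5 KO the libraries stood at 738, 591 and 777 CPM unstimulated, 935, 946 and 652 CPM after LPS, and 1219, 1226 and 1162 CPM after LPS with defactinib. All LPS-treated WT libraries lay above the unstimulated ones. The difference with LPS in WT was 0.52 (SE 0.19, edgeR adjusted p = 0.0331), and with LPS plus defactinib it was 0.85 in WT (SE 0.19, edgeR adjusted p = 0.00167) and 0.78 in IRF5 KO (SE 0.19, edgeR adjusted p = 0.00278). Without WT LPS defactinib replicate 2 the value in WT was 1.05 and was called (edgeR adjusted p = 0.000234), and without replicate 3 of that group, at 1588 CPM, it was 0.59 (edgeR adjusted p = 0.00602). The LPS effect on C3 in IRF5 KO was 0.27 (SE 0.19, edgeR adjusted p = 0.263). It was 0.42 (edgeR adjusted p = 0.0494) without IRF5 KO LPS DMSO replicate 3 and -0.091 (edgeR adjusted p = 0.897) with replicate 3 as the only library of its group. WT against IRF5 KO differed by -0.082, 0.17 and -0.012 in the 3 conditions (SE 0.18 each), none past the threshold on p.

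Properdin (Cfp, ENSMUSG00000001128, chrX:20925454-20931555, minus strand), the stabiliser of the alternative pathway convertase, had the narrowest range of the members relative to its level. It ranged from 593 to 830 CPM over all 18 libraries, and from 642 to 663 CPM over the 6 WT libraries without defactinib. Its largest fold change was 0.35 (SE 0.12, edgeR adjusted p = 0.0196), for LPS plus defactinib in IRF5 KO. IRF5 KO LPS DMSO replicate 3, at 598 CPM, lay within the unstimulated IRF5 KO range, whereas replicates 1 and 2 stood at 829 and 830 CPM. Without replicate 3 the LPS effect on Cfp in IRF5 KO was 0.44 (edgeR adjusted p = 0.000384), against 0.30 (edgeR adjusted p = 0.0524) with all libraries and -0.016 (edgeR adjusted p = 0.973) with replicate 3 alone.

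The C1q chains, whose genes lie side by side on chromosome 4 (C1qb, ENSMUSG00000036905, chr4:136880129-136886187; C1qc, ENSMUSG00000036896, chr4:136889804-136893065; C1qa, ENSMUSG00000036887, chr4:136895917-136898803; all minus strand), varied together, and none was called in any comparison with all libraries and TMM scaling. When scaled by library size alone, C1qa was called for LPS plus defactinib in WT (log2 -1.08, edgeR adjusted p = 0.0114). C1qb stood at 219, 223 and 149 CPM in WT unstimulated, 192, 219 and 155 CPM in WT LPS DMSO and 133, 152 and 79.2 CPM in WT LPS defactinib libraries. In IRF5 KO it stood at 178, 178 and 185 CPM unstimulated, 215, 212 and 198 CPM after LPS and 178, 186 and 179 CPM after LPS with defactinib. C1qa ranged from 20.01 to 87.3 CPM and C1qc from 27.3 to 73.8 CPM in WT, and from 52.8 to 68.3 CPM and 59.2 to 76.1 CPM in IRF5 KO. In each WT group replicate 3 was the lowest for all 3 chains, and the WT libraries spread more widely than the IRF5 KO libraries.

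Defactinib before LPS in WT gave log2 fold changes of -0.61 for C1qa (SE 0.30, edgeR adjusted p = 0.0972), -0.64 for C1qb (SE 0.19, edgeR adjusted p = 0.0113) and -0.53 for C1qc (SE 0.22, edgeR adjusted p = 0.0481), all short of the fold threshold. Without WT LPS defactinib replicate 3 they were -0.28, -0.38 and -0.30, with edgeR adjusted p of 0.380, 0.0503 and 0.234. In IRF5 KO the values were -0.25, -0.20 and -0.15 (SE 0.30, 0.19 and 0.22). The defactinib effects of the genotypes differed by -0.37, -0.43 and -0.38 (edgeR adjusted p = 0.531, 0.231 and 0.354). LPS alone gave -0.29, -0.06 and -0.15 in WT and 0.11, 0.21 and 0.0014 in IRF5 KO, none past the threshold on p. Against unstimulated WT cells, C1qa with LPS plus defactinib gave -0.91 (SE 0.30, edgeR adjusted p = 0.0214), and it was called without WT unstimulated replicate 3 (-1.15) or WT LPS defactinib replicate 2 (-1.29), whereas without WT LPS defactinib replicate 3 it was -0.57 (edgeR adjusted p = 0.0840).

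Over the 18 libraries, which share groups and sequencing depth, log2 CPM of the chains had a Pearson r of 0.964 (C1qa and C1qb), 0.942 (C1qa and C1qc) and 0.934 (C1qb and C1qc). Per length, C1qa was 0.264 to 0.417 times and C1qc 0.163 to 0.231 times the level of C1qb. Among the other pairs of members the highest r was 0.539 (C1qc and C5ar1) and the lowest -0.770 (C1qc and Cfb).

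**Figure D4:**
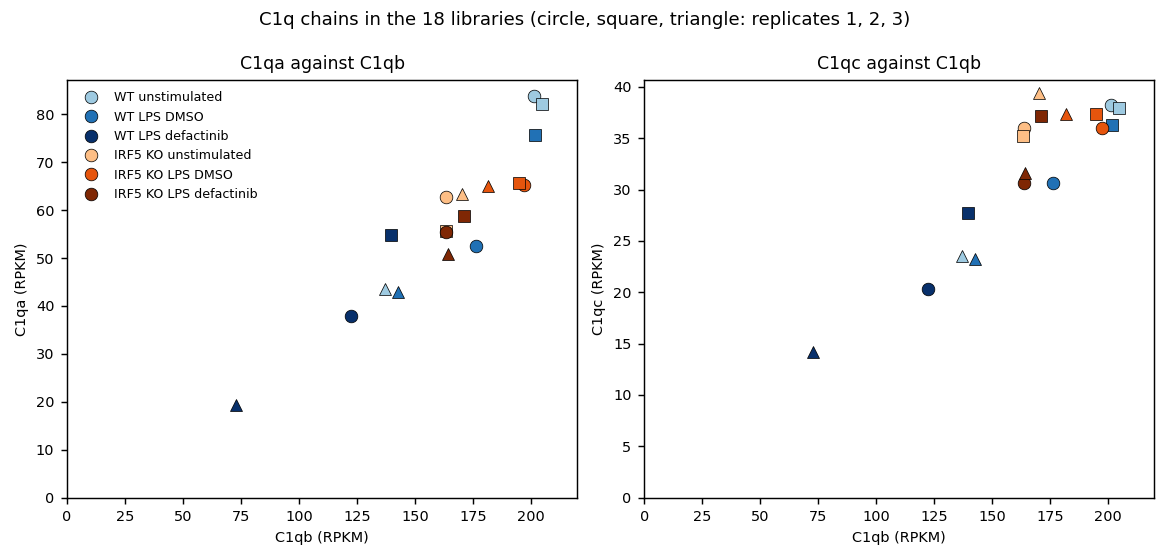
C1qa (left) and C1qc (right) against C1qb in RPKM, 1 point per library, coloured by group, with the symbol giving the replicate. Levels vary together from WT LPS defactinib replicate 3 at 72.8 RPKM of C1qb to WT unstimulated replicate 2 at 205 RPKM. The ratio of C1qc to C1qb is 0.216 to 0.231 in IRF5 KO unstimulated libraries and at most 0.198 in WT libraries.

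The promoters of C1qb (chr4:136886201-136886450) and C1qc (chr4:136893066-136893164), both on the minus strand, are shown because their transcripts varied together. They are cut in the same way as those of the receptors, and capitals mark the PU.1 match of C1qc. Its NF-kB match lies inside the gene model and is not printed.
C1qb: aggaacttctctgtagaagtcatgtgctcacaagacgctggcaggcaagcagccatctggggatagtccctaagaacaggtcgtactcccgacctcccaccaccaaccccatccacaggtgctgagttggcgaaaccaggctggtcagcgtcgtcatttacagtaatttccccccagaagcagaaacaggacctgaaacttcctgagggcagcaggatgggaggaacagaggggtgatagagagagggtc
C1qc: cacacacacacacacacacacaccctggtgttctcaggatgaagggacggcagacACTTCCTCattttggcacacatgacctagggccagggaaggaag

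For each member the most similar other genes were sought by Pearson r of log2 CPM over the 18 libraries, which fall into the 6 groups. For C5ar1 these were Hivep2 (0.959), Hif1a (0.957) and Zfp827 (0.930), and for C3ar1 Emsy (0.960), Zfp809 (0.957) and B430306N03Rik (0.956). For Cfb they were Rnase2a (0.967), Asb11 (0.966) and Cpne8 (0.960), for C3 Man2a1 (0.963), Isoc1 (0.956) and Itgb1 (0.952), and for Cfp Acbd6 (0.948), Gnai2 (0.928) and Gm12905 (0.925). Serping1 was nearest to Htra4 (0.951), Isg15 (0.950) and Fam129a (0.947). The C1q chains had lower values: C1qa was nearest to Mgl2 (0.877), Lrp5 (0.848) and Trp53i11 (0.801), C1qb to Mgl2 (0.904), Chsy3 (0.872) and Trp53i11 (0.863), and C1qc to Gm44756 (0.871), Lrp5 (0.870) and Cdt1 (0.866).

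Of 46 other complement genes, 23 passed the filter on low counts, 16 were counted too rarely and 7 had 0 counts in all libraries. Those at 0 were the lectins Mbl1, Mbl2 and Colec10, the terminal component C6, the regulators Cfi and Vtn, and Cd55b. Hc, which encodes C5, the source of the C5ar1 ligand, was counted at up to 0.617 CPM and was not tested. It was singled out after its values were seen.

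With LPS in WT, 2 of the 23 were called (21.3% of all genes), both higher: clusterin (Clu), a soluble inhibitor of the terminal complex, and Cd55, a membrane regulator which speeds the decay of convertases. With defactinib in WT 4 were called (29.1% of all genes), of which C1s1 (a C1 protease), Cd59a and Cd59b (inhibitors of the membrane attack complex) rose and Cd55 fell. The median log2 fold change of the 23 was 0.032 with LPS and 0.31 with defactinib in WT, against -0.0045 and 0.086 over all tested genes. In IRF5 KO, 3 were called with LPS (Colec11 and Cd59b higher, C5ar2 lower), against 13.3% of all genes, and 1 with defactinib, C1s1, higher, against 0.919%. Colec11, Cd55 and Cd59b stayed below 1 CPM in every library. Between WT and IRF5 KO, 1 was called unstimulated (C5ar2, lower in WT), 5 after LPS (Fcna and Colec12 higher, Cd59a, Cd59b and Susd4 lower) and 3 after LPS with defactinib (C1rl and Clu higher, Susd4 lower), where 7.31%, 25.8% and 17.3% of all genes were called. Without IRF5 KO LPS DMSO replicate 3, 5 of the 23 were called with LPS in IRF5 KO (26.3% of all genes in that fit) and 6 between the genotypes after LPS (34.6%). In the same fit 3 were called for the interaction of genotype with LPS (23.9%), where 0 were called with all libraries, and 2 for that with defactinib (31.9%) in place of 1. Among these, the LPS effect on C5ar2 then differed between the genotypes by 1.81 (edgeR adjusted p = 0.0131). Of the 19 calls named above, 4 were kept in every fit that left out 1 library: Cd55 with LPS in WT, C5ar2 with LPS in IRF5 KO, and Colec12 after LPS and Clu after LPS with defactinib between the genotypes. Leaving out 1 library cannot leave out IRF5 KO LPS DMSO replicates 1 and 2 together. The fit with replicate 3 as the only library of that group was read for the members only. Values of the other complement genes that use this group, among them C5ar2, Colec12 and Cr1l, were not checked in that way.

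Clu stood at 59.7, 58.0 and 59.0 CPM in WT unstimulated, 163, 105 and 88.5 CPM in WT LPS DMSO and 308, 256 and 104 CPM in WT LPS defactinib libraries. It rose with LPS in WT by 1.01 (log2, SE 0.32, edgeR adjusted p = 0.0179), and the defactinib effect of 0.91 (SE 0.32, edgeR adjusted p = 0.0240) stayed short of the fold threshold. The first was 0.72 (edgeR adjusted p = 0.101) without WT LPS DMSO replicate 1 and was also lost without WT unstimulated replicate 2 (1.003, edgeR adjusted p = 0.0525). The second was called when WT LPS DMSO replicate 1 was left out (1.22), and likewise for WT LPS defactinib replicate 3 (1.26). The protease C1ra gave 0.40 with LPS (SE 0.20) and 0.83 with defactinib in WT (SE 0.20, edgeR adjusted p = 0.00256), and rose by 1.23 against unstimulated cells (SE 0.20, edgeR adjusted p = 0.000199). Without WT LPS defactinib replicate 3, C1ra was 0.50 (edgeR adjusted p = 0.00849) with defactinib and 0.89 against unstimulated cells, below the fold threshold. The defactinib effect was called without replicate 2 of that group (1.02) and without WT LPS DMSO replicate 1 (1.01). The part of the stromal and other markers of WT LPS defactinib replicate 3 in these values was not tested. C1rl, a C1r-like protease, was higher in WT than in IRF5 KO after LPS with defactinib by 1.06 (SE 0.21, edgeR adjusted p = 0.000981), and by 0.85 without WT LPS defactinib replicate 3, again below the threshold, as was C1s1 with defactinib in WT (0.94).

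Among surface proteins, C5ar2, a further receptor for C5a, was higher in IRF5 KO than in WT without LPS, as C5ar1 was. It stood at 0.749, 0.863 and 0.701 CPM in WT unstimulated and 2.52, 1.79 and 2.28 CPM in IRF5 KO unstimulated libraries (log2 -1.51, SE 0.41, edgeR adjusted p = 0.0200), a call lost in 5 of 6 fits that left out 1 library (edgeR adjusted p between 0.0541 and 0.0818), and fell with LPS in IRF5 KO (log2 -2.22, SE 0.43, edgeR adjusted p = 0.00250). The scavenger collectin Colec12 was higher in WT after LPS by 1.57 (log2, SE 0.31, edgeR adjusted p = 0.000735), and its defactinib effect was lower in WT than in IRF5 KO (log2 -1.53, SE 0.43, edgeR adjusted p = 0.0118). The ficolin Fcna was also higher in WT after LPS, by 1.01 (log2, SE 0.34, edgeR adjusted p = 0.0210), and Susd4, a membrane regulator, was lower in WT (log2 -1.44, SE 0.49, edgeR adjusted p = 0.0224). The call of Fcna was lost without IRF5 KO LPS DMSO replicate 1 (0.73) or WT LPS DMSO replicate 2 (0.93), and that of Susd4 without IRF5 KO LPS DMSO replicate 2 (-1.29) or WT LPS DMSO replicate 1 (-1.20). Cr1l (Crry), the rodent membrane regulator, ranged from 50.6 to 90.2 CPM, and its LPS effect was 0.47 in WT (SE 0.08, edgeR adjusted p = 0.000244) and -0.093 in IRF5 KO, the difference being 0.56 (SE 0.12, edgeR adjusted p = 0.00441). The integrin chains Itgb2 and Itgax of complement receptors 3 and 4 gave no called change, with log2 fold changes between -0.20 and 0.53. C8g, the only terminal component tested, gave none either. Itgam, a further integrin chain of complement receptor 3, was not called between the genotypes. It was lower in all WT than in all IRF5 KO libraries of each condition. The means were 294 against 489 CPM unstimulated, 293 against 466 CPM after LPS and 358 against 700 CPM after LPS with defactinib. Of its exonic bases 68.7% are shared with the gene model Gm49368 on the same strand.

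**Figure D5:**
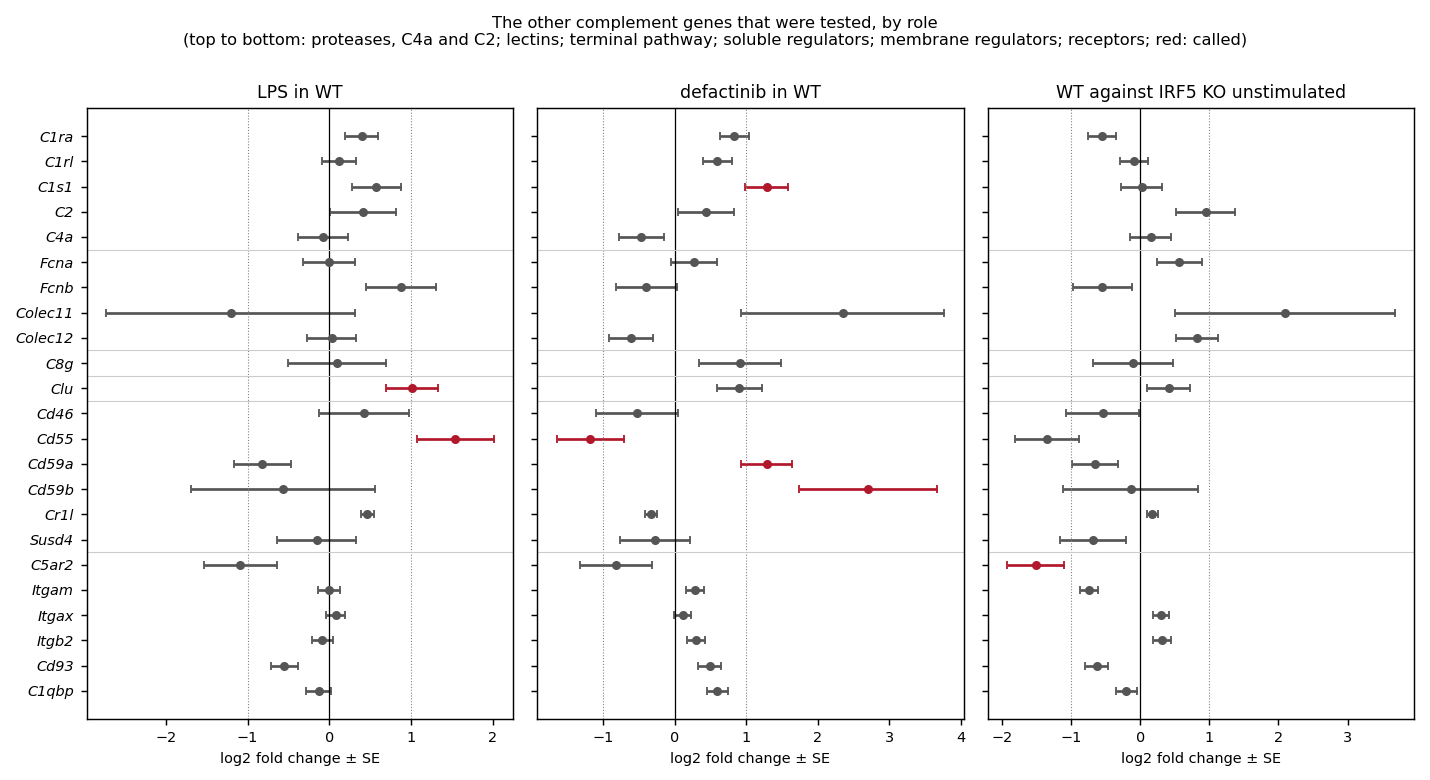
Log2 fold change ± SE of the 23 other tested complement genes with LPS in WT, with defactinib before LPS in WT, and for WT against IRF5 KO unstimulated, grouped by role. Red points were called; Clu and Cd55 are higher with LPS (1.01 and 1.54), C1s1, Cd59a and Cd59b are higher with defactinib, and C5ar2 (-1.51) is lower in WT than in IRF5 KO.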

How the data were processed

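The authors aligned paired reads to mm10 with STAR, kept uniquely mapped pairs and counted them with featureCounts 1.6.3, reverse stranded, over the exons of each Ensembl gene. The deposited values are raw counts per gene for 18 libraries, with the exonic length per gene deposited in the same table, and all 18 were used. Pairs that fit more than 1 gene were not counted, which lowers Cfb. Counted pairs ranged from 39282181 to 61949143.

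From these counts edgeR 4.0.16 (R 4.3.3) gave TMM-normalised CPM and RPKM, and two-sided quasi-likelihood F tests (filterByExpr, all 18 libraries fitted robustly with a mean for each group, Benjamini-Hochberg over 15663 genes). Calls needed an adjusted p below 0.05 with an absolute log2 fold change above 1. The SE is the log2 fold change divided by the square root of F. The procedure was checked on simulated counts. Alternatives were DESeq2 1.42.0, limma-voom 3.58.1, DESeq2's size factors, library size alone, other filters, the replicate number as a block, only the groups compared, other fold rules and each library left out in turn. Each library left out for the other complement genes, and replicate 3 as the only library of IRF5 KO LPS DMSO, were alternatives chosen after seeing the data. The latter was read for the members only.

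The members and lists were chosen with earlier results of these data known. Named were all members, Irf5, per role the 2 other tested complement genes highest in RPKM, those called with LPS or defactinib in WT at a mean of at least 1 RPKM, and the 3 genes most like each member. C1s1, C5ar2, Cd55, Cd59a, Cd59b, Colec11, Hc and, as a receptor chain, Itgam fall outside this rule and were named after their values were seen. Some complement genes are not reported here.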

Additional observations from a re-analysis of the deposited data

Results flagged for a closer look

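Effects that differed between the genotypes by the interaction term of edgeR's quasi-likelihood test and passed the fold threshold were found for 2 members and 1 other named complement gene. For C5ar1 the LPS effect was 3.43 higher (log2, SE 0.53, adjusted p = 0.000851) and the defactinib effect lower (log2 -3.94, SE 0.53, adjusted p = 4.85e-05) in WT than in IRF5 KO. WT C5ar1 was higher in 3 of 3 LPS DMSO libraries than in any unstimulated or defactinib-treated library. For Serping1 the defactinib effect was lower in WT (log2 -2.65, SE 0.92, adjusted p = 0.0405), from 128 counts in WT LPS DMSO, 17 in WT LPS defactinib, 22 in IRF5 KO LPS DMSO and 19 in IRF5 KO LPS defactinib. Serping1 passed the filter on low counts only through WT LPS DMSO, and this call was lost in 12 of 19 alternative fits. For Colec12 it was lower in WT as well (log2 -1.53, SE 0.43, adjusted p = 0.0118), which was not checked with replicate 3 as the only IRF5 KO LPS DMSO library. Groups of 3 libraries are too small for the outlier test used on larger groups.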

How the results depend on the processing

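Other scalings, filters, tests and call rules moved the following counts of called members by more than 1.5 times in total, and other counts by at most 1 member. Library size alone gave 1 for the interaction of genotype with defactinib. Within that limit, it gave 2 higher and 2 lower for LPS plus defactinib in WT, in place of 2 and 1, with C1qa added. No filter gave 1 for that interaction. The filter of 5 CPM in 3 libraries, which drops Serping1, gave 1 for LPS in WT, 0 for LPS in IRF5 KO, 1 for defactinib in WT, 1 for LPS plus defactinib in IRF5 KO, 1 for WT against IRF5 KO after LPS and 1 for the interaction with defactinib. Limma-voom gave 2 for LPS in IRF5 KO. A fit of only the groups compared gave 0 for LPS in IRF5 KO and 1 for the interaction with defactinib. No fold threshold gave 4 for defactinib in WT, 7 and 4 for LPS plus defactinib in WT and IRF5 KO, and 4 for WT against IRF5 KO with defactinib. The fold change tested in the model gave 1 for LPS plus defactinib in WT, 1 for WT against IRF5 KO unstimulated and 1 for the interaction with defactinib. Apart from the dropped gene and the changed call rules, the cause was not tested.

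With 1 library left out, called members ranged from 1 to 3 for the interaction with defactinib, 1 to 2 for that with LPS, 1 to 2 for LPS in IRF5 KO, 0 to 1 for defactinib in IRF5 KO, 1 to 2 for WT against IRF5 KO unstimulated, 2 to 3 for defactinib in WT and for WT against IRF5 KO after LPS, and 2 to 4 for LPS plus defactinib in WT. Among values at least as large as their SE, or called under the alternative, those that changed direction were C1qb with LPS in IRF5 KO (-0.034) and Cfp with LPS plus defactinib in IRF5 KO (-0.018) under library size alone, Cfb with defactinib in WT (-0.010, range with 1 library left out -0.010 to 1.07) without WT LPS defactinib replicate 3, and, without IRF5 KO LPS DMSO replicate 3, C3ar1 with defactinib in IRF5 KO (0.35, range -2.23 to 0.35), WT against IRF5 KO after LPS (1.22, adjusted p = 0.0478, range -1.36 to 1.22) and the interaction with defactinib (-1.81, adjusted p = 0.0368, range -1.81 to 0.80). With replicate 3 as the only IRF5 KO LPS DMSO library, chosen after seeing the data, the direction also changed for LPS in IRF5 KO in C3 (-0.091) and Cfp (-0.016), for defactinib in IRF5 KO in C5ar1 (-0.42), and for Cfp between the genotypes after LPS (0.12) and in the interaction with LPS (0.035). In that fit C3ar1 lay outside the ranges above, at -3.09 with defactinib in IRF5 KO, -2.22 between the genotypes after LPS and 1.65 in the interaction with defactinib. None of these was called with all libraries, and of 97 log2 fold changes 41 were smaller than their SE with all libraries, for which 74 of 632 alternative fits had the other sign. Library size alone moved the median log2 fold change of all genes from -0.0045 to -0.38 for LPS in WT and from 0.086 to 0.29 for defactinib in WT.

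Over all groups, deviations of same-numbered libraries had a median r of 0.0046 (45 pairs, above 0.1 in 4, highest 0.278). These pairs mix both genotypes, and pairing within a genotype was not tested apart. In each WT group replicate 3 was the lowest for every C1q chain. With the replicate block, LPS in IRF5 KO gave 2 members, C3ar1 being added (-2.12, adjusted p = 0.0337), C3ar1 with defactinib in WT was called too (-1.80, adjusted p = 0.0458), and no other call of a member changed. Depth limits Serping1, with at most 53 counts in a library.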
